A study of Mus musculus with 4 samples.

Results

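*Abca5*, *Abca6*, *Abca8a*, *Abca8b* and *Abca9* form a cluster of ABC transporter genes on mouse chromosome 11, and their expression was compared between the livers of *Usp21* KO and WT mice. These genes are 5 of the 35739 genes in the TPM table, and each was found once by its symbol. The cluster was chosen by the TPM values of *Abca8a*, a protein-coding gene that was listed at 0 in both WT libraries. The difference between genotypes therefore entered the choice, and the values of the 5 genes are given as a description without a test. Liver RNA was sequenced with 2 libraries per genotype, which the labels number as replicates 2 and 3 for WT and as replicates 1 and 3 for *Usp21* KO. The labels number the libraries but do not say whether each came from a single mouse, so that p-values measure the spread between these libraries alone. Per the study's methods, the mice were littermates aged 10 to 11 weeks on a normal diet. The *Usp21* KO allele lacks exons 3 and 4, which Cre recombinase had excised to give a constitutive KO, so that the loss of *Usp21* was not limited to the liver. The KO alleles came from 129/Sv ES cells and were carried on a mixed B6 × 129/Sv background. Per the study, such carriers were bred to B6 mice with *Usp21* WT alleles, and both WT and KO littermates came from this breeding. No separate background was stated for the WT mice. The strain of origin of each chromosome 11 was not given in the sources used here.

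ABC transporters are membrane proteins that bind and hydrolyse ATP to move substrates across membranes. Members of the ABCA subfamily mostly handle lipids. The best known of them in the liver is ABCA1, which passes cholesterol and phospholipids to apolipoprotein A-I to form HDL. The genes of this cluster arose by duplication of an ABCA gene and encode full-length transporters. ABCA8 has been linked to cholesterol efflux and HDL levels, and ABCA5 to the lipids of lysosomes and late endosomes. The substrates of ABCA6 and ABCA9 are less well defined.

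TPM values, which salmon estimates by assigning reads to transcripts and correcting for their length, were above 0 for 12876 to 13620 genes in each library. Hepatocyte markers such as *Alb* were above 0 in all libraries for 10 of 10 genes and summed to between 57695 and 82904 TPM. *Usp21* had 4.07 and 6.29 TPM in WT replicates 2 and 3, compared with 1.64 and 2.93 TPM in KO replicates 1 and 3, so that WT and KO did not overlap and KO was lower (adjusted p = 0.464 from limma). The remaining exons of the KO allele can still give reads. In limma on log2(TPM + 1), with Benjamini-Hochberg adjustment over 9581 genes averaging at least 1 TPM, 8 genes (0.0835%) had an adjusted p under 0.05.

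The 5 genes lie head to tail on the reverse strand of chromosome 11 (GRCm38), in the order *Abca8b*, *Abca8a*, *Abca9*, *Abca6* and *Abca5* from low to high coordinates. They span 405527 bases. *Abca8b* (ENSMUSG00000020620) covers 109932190 to 109995845, and *Abca8a* (ENSMUSG00000041828) covers 110025634 to 110095978. *Abca9* (ENSMUSG00000041797) covers 110100749 to 110168196, *Abca6* (ENSMUSG00000044749) covers 110176820 to 110251776, and *Abca5* (ENSMUSG00000018800) covers 110269369 to 110337716. The gap between *Abca8a* and *Abca9* is the shortest, at 4770 bases, and the gap between *Abca8b* and *Abca8a* is the longest, at 29788 bases. The transcript with the longest coding sequence has 39 exons in each of the 5 genes, and its coding length ranges from 4860 bases in *Abca8a* and *Abca8b* to 4926 bases in *Abca5*. *Abca8a* has 8 annotated transcripts, from 299 to 5619 bases long. The table holds 1 TPM value per gene, so the transcripts behind the *Abca8a* value were not analysed here.

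*Abca8a* and *Abca8b* are the most similar pair, with 73.3% identical bases over 4816 aligned coding bases. *Abca8a* and *Abca9* were 69.4% identical, *Abca8a* and *Abca6* 61.6%, and *Abca8a* and *Abca5* 54.0%. The sequences below come from exon 12 of each gene (GENCODE M21, GRCm38, reverse strand) and code for the first ATP-binding loop (Walker A), the part of the transporter that grips the phosphates of ATP. They are shown as a stretch that all 5 members share in function and in which *Abca8a* and *Abca8b* are identical. Capitals mark bases that differ from *Abca8a*, and *Abca8b* has no difference over these 30 bases, while *Abca9* has 3, *Abca6* has 6 and *Abca5* has 8.
Abca8a (chr11:110071460-110071489): cttggtcacagtggagctgggaaatcaaca
Abca8b (chr11:109969102-109969131): cttggtcacagtggagctgggaaatcaaca
Abca9 (chr11:110146948-110146977): cttggtcacagtggagctgggaaaAcCacC
Abca6 (chr11:110220118-110220147): ctGggCcacagtggagcGggCaaatcTTca
Abca5 (chr11:110306285-110306314): ctGggCcacagtggaAcAggAaaaAGCaca

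Most of the coding sequence differs more than this. A stretch of 30 bases in exon 2, the first window at the mean identity of the pair, has 8 differences between *Abca8a* and *Abca8b*, marked by capitals in the second line.
Abca8a (chr11:110091564-110091593): gtgtgccaacaaacgtgggccttattgtgc
Abca8b (chr11:109981723-109981752): gtgCgccaacaaacTtgTgcTttattACAG

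Because salmon assigns reads by sequence, the transcripts were compared in stretches of 31 bases. Of the 6343 distinct stretches in the transcripts of *Abca8a*, 197 (3.11%) also occurred in another gene, 183 of them in *Abca8b*. The shares were 3.23% for *Abca8b*, 0.634% for both *Abca6* and *Abca9* and 0.0694% for *Abca5*. The longest run of identical aligned coding bases in *Abca8a* and *Abca8b* was 97 bases long. How salmon divided reads from such shared stretches between the genes was not tested.

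**Figure D1:**
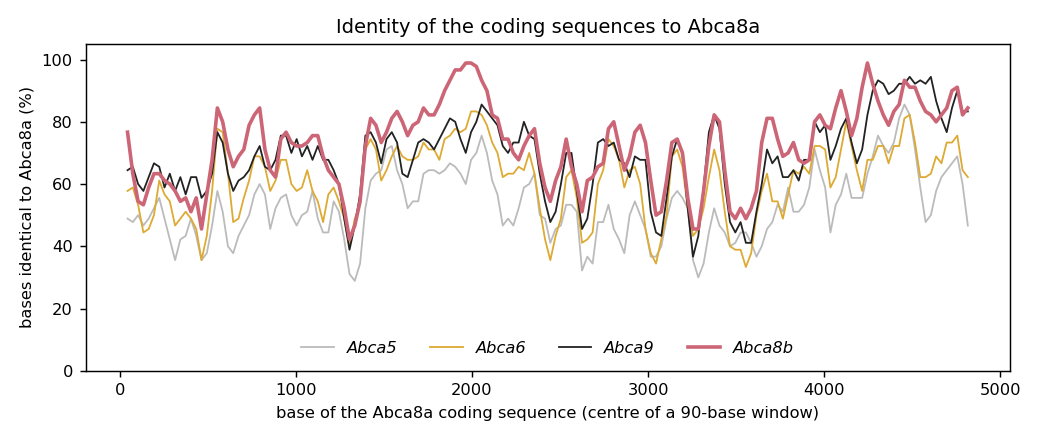
Identity of the coding sequences of the other 4 genes to *Abca8a* (y axis, percent of bases identical) in windows of 90 bases along the *Abca8a* coding sequence (x axis, base at the window's centre). *Abca8b* (thick line) ranges from 42.2% to 98.9% and is highest in the windows centred on bases 1965, 1995 and 4245. The pair is thus almost identical in short parts and differs over most of its length.

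*Abca8a* was listed at 0 TPM in WT replicates 2 and 3, compared with 7.94 and 18.4 TPM in *Usp21* KO replicates 1 and 3. The mean was 13.2 ± 7.42 TPM in KO (SD, n = 2), and the KO libraries differed from each other by more than 2-fold. *Abca8a* was above 77.5% of the protein-coding genes in KO replicate 1 and above 87.5% of them in KO replicate 3. No fold change is given, since both WT libraries were at 0. The difference between the group means of log2(TPM + 1) was 3.72, a value that depends on the number added before the logarithm. The libraries came from whole liver, in which a change in the number of cells of a type cannot be told apart from a change in RNA per cell. In the WT libraries, the values next above the zeros of *Abca8a* were those of *Abca9* and *Abca5*, the lowest being 0.132 TPM for *Abca9*.

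*Abca8b*, the closest relative of *Abca8a*, had 4.82 and 3.41 TPM in the WT livers against 9.81 and 5.13 TPM in the KO livers. The KO values were above the WT values, although WT replicate 2 and KO replicate 3 lay close together. The means were 4.11 ± 1.00 TPM in WT and 7.47 ± 3.31 TPM in KO (SD, n = 2 per genotype), with a difference of 0.68 on the log2(TPM + 1) scale (standard error 0.35). The difference was 0.28 without KO replicate 1 and 1.09 without KO replicate 3. The order of the KO libraries was opposite in these paralogs, since *Abca8a* was higher in KO replicate 3 and *Abca8b* in KO replicate 1. The ratio of *Abca8a* to *Abca8b* was 0.81 in KO replicate 1 and 3.59 in KO replicate 3. Added together, the pair had 4.82 and 3.41 TPM in WT against 17.8 and 23.6 TPM in KO, a difference of 2.08 on the log2(TPM + 1) scale.

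*Abca6* was the most abundant of the 5 genes in the WT libraries, with 21.9 and 17.6 TPM, and had 15.97 and 22.4 TPM in the KO livers. The highest and the lowest value were both from KO, and the groups overlapped. The means were 19.8 ± 3.08 TPM in WT and 19.2 ± 4.58 TPM in KO (SD, n = 2 per genotype), with a difference of -0.05 on the log2(TPM + 1) scale (standard error 0.24). The sign of this difference turned when a library was left out, from -0.28 without KO replicate 3 to 0.18 without KO replicate 1.

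*Abca5* and *Abca9* were near the lower end of detection. *Abca5* had 0.154 and 0.497 TPM in WT against 0.546 and 0.357 TPM in KO, a difference of 0.14 on the log2(TPM + 1) scale (standard error 0.19). *Abca9* had 0.132 and 0.167 TPM in WT against 0.249 and 0.127 TPM in KO, a difference of 0.05 (standard error 0.12). The groups overlapped for both genes, and both had a mean under 1 TPM, so that their standard errors came from a fit without the filter on low values.

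**Figure D2:**
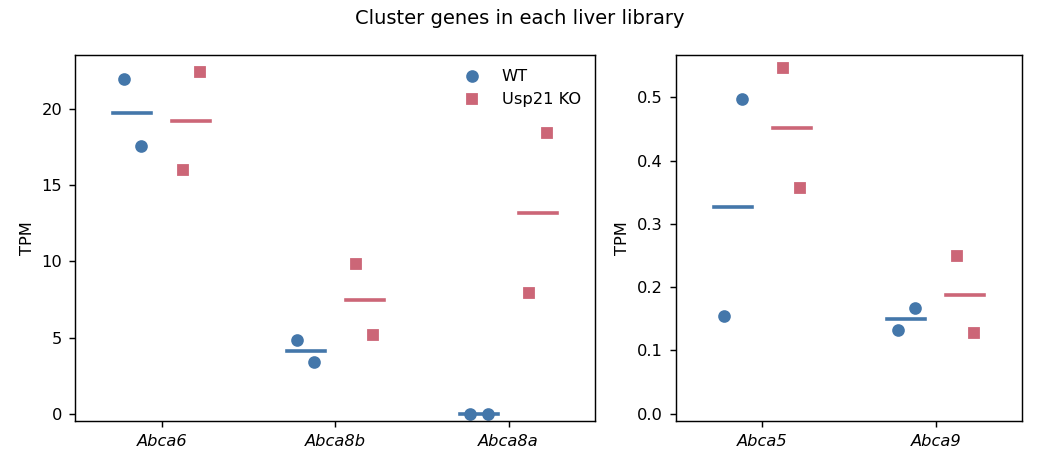
Level in TPM (y axis) of the 5 genes (x axis) in each WT (circles) and *Usp21* KO (squares) library, with the mean of each genotype as a line, and with *Abca5* and *Abca9* on a scale of their own. The WT values of *Abca8a* are 0 and its KO values 7.94 and 18.4 TPM, while *Abca6*, *Abca5* and *Abca9* overlap between genotypes.

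The order of the levels in both WT libraries was *Abca6*, *Abca8b*, *Abca5*, *Abca9* and *Abca8a* in TPM, which corrects for transcript length. *Abca6* and *Abca8b* did not overlap there, and neither did *Abca8b* and *Abca5*. *Abca5* and *Abca9* overlapped, since *Abca5* in WT replicate 2 was below *Abca9* in WT replicate 3. In the KO libraries *Abca8a* had moved from the last place to the third in KO replicate 1 and to the second in KO replicate 3. There its values overlapped with those of both *Abca6* and *Abca8b*. *Abca8a* reached 0.497 and 0.821 times the TPM of *Abca6* in KO replicates 1 and 3.

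The summed level of the 5 genes was 27.0 and 21.7 TPM in the WT livers against 34.5 and 46.5 TPM in the KO livers. The difference on the log2(TPM + 1) scale was 0.70, with values from 0.49 to 0.91 when single libraries were dropped. Without *Abca8a*, the other 4 genes summed to 27.0 and 21.7 TPM in WT and to 26.6 and 28.1 TPM in KO. These sums overlapped, with a difference of 0.17. *Abca6* held 81.1% and 81.2% of the summed TPM in the WT livers against 46.3% and 48.3% in the KO libraries. *Abca8a* held 23.0% of it in KO replicate 1 and 39.6% in KO replicate 3.

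**Figure D3:**
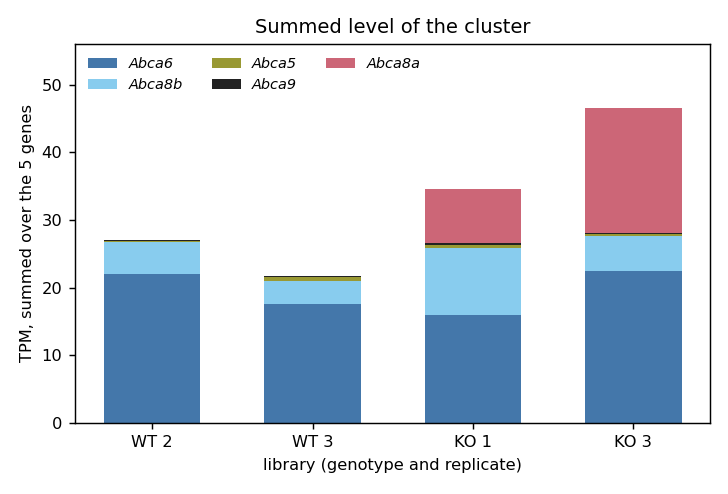
TPM of the 5 genes stacked for each library (y axis, TPM, bars from 0; x axis, genotype and replicate). The part below *Abca8a* is between 21.7 and 28.1 TPM in all 4 libraries, and *Abca8a* adds to it in the KO libraries.

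Of the 5 genes, 3 passed the filter of a mean of at least 1 TPM (*Abca6*, *Abca8a* and *Abca8b*), and *Abca8a* passed through the KO libraries alone. For *Abca8a* and *Abca8b* the lowest KO value was above the highest WT value, a pattern found in 34.4% of the 9581 tested genes, while *Abca6*, *Abca5* and *Abca9* overlapped between genotypes, as did 54.7% of the tested genes. A difference of at least 1 on the log2(TPM + 1) scale in favour of KO was found for *Abca8a*, compared with 2.59% of the tested genes, and a difference as large in favour of WT for 0 of the members and 1.1% of the tested genes. *Abca6* was the member with a lower mean in KO, as were 33.3% of the tested genes. These shares are given as background, since the contrast itself was used to choose the cluster. Being at 0 in both WT libraries and above 0 in both KO libraries applied to 166 of 21529 protein-coding genes (0.771%), with a median of 0.168 TPM in KO. The opposite pattern applied to 75 genes (0.348%). By mean KO level *Abca8a* was second of the 166, after *Rpl9-ps6* at 92.5 TPM, a locus named as a ribosomal protein pseudogene whose reads may belong to near-identical copies. The next was *Zcchc8*, at 7.54 and 1.08 TPM in the KO livers and a mean of 4.31 TPM.

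Zeros were frequent among genes as long as *Abca8a*. Of 1525 other protein-coding genes whose longest transcript was within 10% of 5619 bases, between 387 and 442 were listed at 0 in each library. The lowest value above 0 among them was 0.0245 and 0.0368 TPM in the WT livers against 0.0315 and 0.0126 TPM in the KO livers, and their median above 0 was between 1.81 and 2.46 TPM. The *Abca8a* levels of the KO libraries were above this median. Read numbers cannot be recovered from TPM, so no limit could be set on what the zeros of *Abca8a* allow.

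The protein-coding genes nearest to each member in level and pattern were found by the Euclidean distance of log2(TPM + 1) over the 4 libraries. For *Abca8a* they were *Galnt2* (distance 1.71), *Bmal1* (2.03) and *Cdkn1a* (2.09). *Galnt2* had 0.969 and 0 TPM in WT against 15.1 and 7.90 TPM in KO, and *Bmal1* had 0.241 and 0.243 TPM in WT against 5.89 and 4.05 TPM in KO. All 3 were higher in KO replicate 1 than in KO replicate 3, the opposite of *Abca8a*. Closer matches existed for *Abca8b*, led by *Mtmr4* (0.146), *Triobp* (0.159) and *Camk1d* (0.243), and for *Abca6*, led by *Unc50* (0.155), *Ppp6c* (0.169) and *Dnpep* (0.177). The nearest genes of *Abca5* were *Tcaf1* (0.0913), *Klhdc8a* (0.13) and *Ptpre* (0.131), and those of *Abca9* were *Lamc3* (0.0247), *Fcrl1* (0.0606) and *Gramd1b* (0.0681). No member was among the 3 nearest genes of another member. The distance depends on the level, and most members lay at different levels, so that it does not compare their patterns alone. The matches of *Abca8a* rest on the same values that chose the cluster.

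Promoter sequences from RefSeq (GRCm38.p6, 250 bases before to 50 bases after the start of transcription) were matched for 4 of the 5 genes, *Abca5*, *Abca8a*, *Abca8b* and *Abca9*. The *Abca5* promoter was 72.3% G and C and held 40 CpG dinucleotides, compared with medians of 52.7% and 7 over 32851 promoters. The promoters of *Abca8a*, *Abca8b* and *Abca9* had 44.3%, 51.3% and 45.3% G and C and 4, 10 and 2 CpG. Searched on both strands, the E-box CACGTG, a motif bound by basic helix-loop-helix factors, was found in the promoters of *Abca8a* and *Abca8b*, and in 7.15% of all promoters. The motif began 136 bases before the start of transcription in *Abca8a* and at transcribed base 19 in *Abca8b*, and is in capitals below with 10 bases on either side, on the reverse strand. GTAAACA (3.65% of all promoters), TATAAA (13.6%) and CCAAT (37.4%) were found in 0 of the 4 promoters. A match of letters is a description and not evidence of binding.
Abca8a (chr11:110096058-110096083): cgagaatggtCACGTGaatacagtgc
Abca8b (chr11:109995812-109995837): catgcgcggtCACGTGtccgtggtgt

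The authors' other table, which holds reads counted per gene on alignments and scaled by the TMM method (CPM), did not show the same picture. *Abca5*, *Abca6*, *Abca8a* and *Abca8b* were listed at 0 CPM in all 4 libraries. *Abca9*, the least abundant of the genes above 0 TPM in WT, was the member with reads there. Its 23.0 and 36.7 CPM in WT and 6.68 and 18.4 CPM in KO correspond to 3 and 4 reads and to 1 and 2 reads. The KO values were lower at these few reads, while the TPM values of *Abca9* overlapped between genotypes. No test is given for *Abca9*, as for the other members. The zeros of this table carry little information on abundance, since 428 of the 682 genes that reached 100 TPM in all libraries of the TPM table and are held by both tables were also listed at 0 in all 4 libraries. For that reason the TPM values were used for the cluster.

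Within 1 Mb of the cluster the TPM table lists 18 other genes, of which 7 were at 0 in all libraries and 7 had a mean of at least 1 TPM. None of these 7 had an adjusted p under 0.05 in limma, and 2 had an unadjusted p under 0.05 (10.5% of all tested genes). *Map2k6*, a kinase that activates p38 MAP kinases, is the nearest tested gene on the *Abca5* side, 61.4 kb away. It had 3.43 and 3.72 TPM in WT against 1.83 and 1.40 TPM in KO (difference -0.81, standard error 0.25, adjusted p = 0.464 from limma). The KO values of *Map2k6* lay below its WT values. *Fam20a*, which encodes a pseudokinase of the secretory pathway, is the nearest tested gene on the *Abca8b* side, 210 kb away. It had 9.16 and 7.27 TPM in WT against 13.3 and 12.4 TPM in KO (difference 0.60, standard error 0.21, adjusted p = 0.464 from limma). *Prkar1a*, a regulatory subunit of protein kinase A, had 48.3 and 46.4 TPM in WT against 63.3 and 49.0 TPM in KO (difference 0.23, adjusted p = 0.662 from limma). The differences of *Wipi1*, *Arsg*, *Amz2* and *Gna13* lay between 0.22 and 0.36, with adjusted p between 0.696 and 0.723 in limma. The genes at either side thus had differences of opposite sign. Of the 7, 6 were higher by mean in KO, as were 6394 of all 9581 tested genes. With each library scaled to an equal upper quartile, 6 of 7 were higher, as were 5204 of 9570 tested genes. Without WT replicate 3 or without KO replicate 1, 5 of 7 were higher. Reads recovered from the CPM table were tested by quasi-likelihood in edgeR, with the genes of this window taken from that table. There 0 of the 7 genes that could be tested had an adjusted or an unadjusted p under 0.05. These are not the same 7 genes as above, since they include *Gm11697*, which is outside the TPM table. The edgeR result is therefore not a second test of the neighbours named here.

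**Figure D4:**
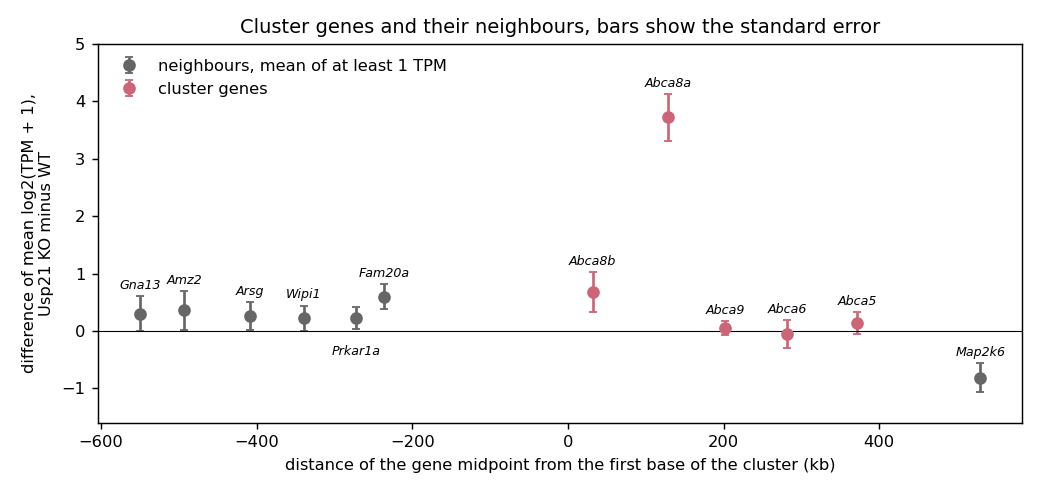
Difference between *Usp21* KO and WT in mean log2(TPM + 1) (y axis, bars show the standard error) of the 5 cluster genes and of the 7 neighbours averaging at least 1 TPM, by the distance of the gene's midpoint from the first base of the cluster (x axis, kb). *Abca8a*, whose value depends on the number added before the logarithm, is at 3.72, while the neighbours lie between -0.81 and 0.60.

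The other ABC transporter genes were read from the same fit, as a list of 48 genes written from general knowledge. Of these, 25 had a mean of at least 1 TPM, and 17 were higher and 8 lower by mean in KO, with a median difference of 0.175 compared with 0.15 over all tested genes. With upper quartile scaling, which moved the median of all genes to 0.04, 13 were higher and 12 lower. None of the 25 had an adjusted p under 0.05 in limma, while 6 had an unadjusted p under 0.05, a limit that 10.5% of all tested genes passed. The edgeR test on recovered reads covered 5 of the 48 genes, of which 0 had an adjusted p under 0.05 and 1 an unadjusted p under 0.05, compared with 3.26% of the 5146 genes in that test at the unadjusted limit. These reads come from the CPM table, which lists many genes of high TPM at 0 and whose strand setting was not given. The edgeR result is therefore not a second test of the TPM values of the ABC genes. Among the other ABCA genes, *Abca12*, *Abca13*, *Abca15*, *Abca16* and *Abca17* were listed at 0 in all libraries. *Abca1*, the cholesterol exporter, had 5.98 and 6.94 TPM in WT against 10.8 and 8.76 TPM in KO (difference 0.53, standard error 0.23, adjusted p = 0.479 from limma). *Abca2*, a lysosomal lipid transporter, had 3.99 and 2.62 TPM in WT against 5.40 and 8.47 TPM in KO (difference 0.87, standard error 0.31, adjusted p = 0.464 from limma). *Abca3*, known for loading lung surfactant lipids, had overlapping groups, with 7.32 and 4.94 TPM in WT against 5.66 and 6.24 TPM in KO.

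The ABC genes with the highest levels were *Abcb11*, *Abcd3*, *Abcc2*, *Abcb4* and *Abcg2*, with means over the 4 libraries of 185.6, 127.1, 49.8, 46.5 and 40.0 TPM. Each of these was above *Abca6*, the highest member in WT. *Abcb11* is the bile salt export pump and had 173.1 and 129.4 TPM in WT against 246.3 and 193.6 TPM in KO (difference 0.54, adjusted p = 0.478 from limma). *Abcb4*, which delivers phosphatidylcholine to bile, differed by 0.66, *Abcc2*, an exporter of conjugated organic anions, by 0.53, and *Abcg2*, an exporter of drugs and urate, by 0.63. The adjusted p from limma was 0.464 for each of these. *Abcd3*, which imports fatty acids into peroxisomes, differed by 0.37 (adjusted p = 0.489 from limma). The largest positive difference among the 25 was that of *Abcc6*, at 0.91 (12.5 and 12.4 TPM in WT, 31.3 and 18.8 TPM in KO), with an adjusted p of 0.464 from limma.

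**Figure D5:**
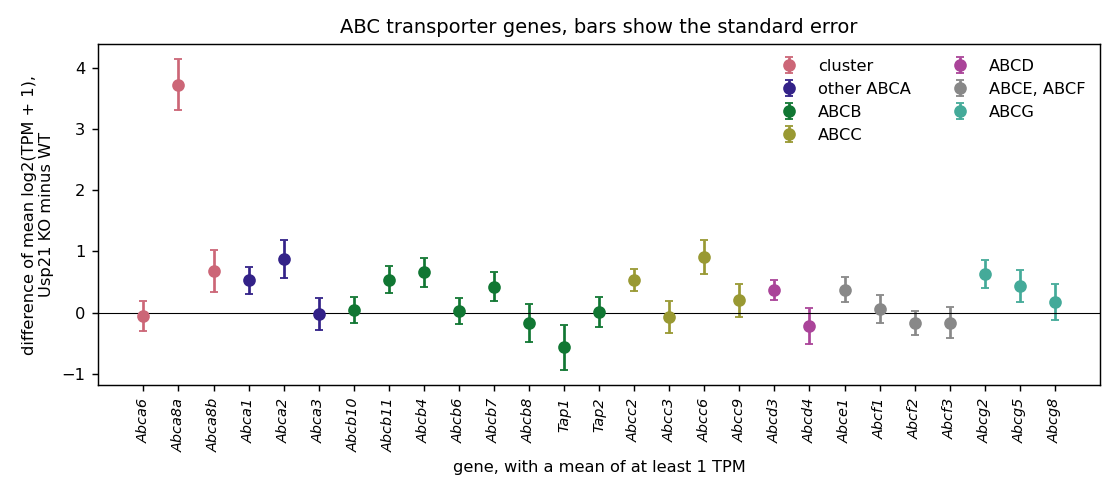
Difference between *Usp21* KO and WT in mean log2(TPM + 1) (y axis, bars show the standard error) of ABC transporter genes averaging at least 1 TPM (x axis), coloured by subfamily, with 3 genes of the cluster at the left. *Abca8a* stands at 3.72, a value set in part by the number added before the logarithm, and the other ABC genes drawn outside the cluster lie between -0.56 and 0.91.

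Markers of other liver cell types were read beside these values. As background, 6394 of all 9581 tested genes were higher by mean in KO, and 5204 of 9570 with upper quartile scaling. Stellate cell markers were higher by mean in KO for 9 of 9 tested genes (8 of 9 with upper quartile scaling), with summed levels of 122.3 to 155.4 TPM in WT and 173.5 to 220.6 TPM in KO. Sinusoidal endothelial markers were higher for 10 of 10 genes (8 of 10 with upper quartile scaling), with sums of 60.2 to 75.8 TPM in WT and 70.2 to 89.8 TPM in KO. Without WT replicate 3, 6 of the 9 stellate and 6 of the 10 endothelial markers were higher. Of the cholangiocyte markers, *Spp1* and *Sox9* could be tested and were both higher by mean, and the list summed to 14.6 to 15.9 TPM in WT and 24.5 to 38.0 TPM in KO. Most of each sum was *Spp1*, at 13.2 and 12.7 TPM in WT against 33.4 and 20.7 TPM in KO. The groups overlapped for *Sox9*, *Krt7*, *Epcam* and *Cftr*. They did not for *Krt19*, at 0.196 and 0.263 TPM in WT against 0.998 and 1.28 TPM in KO. Kupffer cell markers were lower for 8 of 10 genes, with sums of 220.3 to 258.1 TPM in WT and 117.6 to 298.6 TPM in KO, and 9 of 10 were higher without KO replicate 1. Fibroblast markers were all under the filter, with *Pi16* and *Gli1* at 0, and so were the lymphocyte markers. Of the adipocyte markers 1 of 6 was tested, *Plin1* and *Lep* were at 0, and the sums were 5.73 to 9.90 TPM in WT and 12.03 to 15.7 TPM in KO. Most of each sum was the tested gene, *Fabp4*, at 4.61 and 9.47 TPM in WT against 15.4 and 9.91 TPM in KO. The groups overlapped for *Adipoq*, *Cidec* and *Cfd*. Red cell markers were lower for 4 of 5 genes. None of these markers had an adjusted p under 0.05 in limma, and 4 of the 37 tested markers in the 8 lists (10.8%) had an unadjusted p under 0.05, compared with 10.5% of all tested genes. The part of these cell types in the levels of *Abca8a* and *Abca8b* was not tested.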

How the data were processed

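Liver RNA of 2 WT and 2 *Usp21* KO libraries was sequenced on an Illumina MiSeq, and samples were grouped by the genotype in the labels. The authors deposited TPM values per gene, made with salmon on mm10, and a CPM table from HTSeq counts on alignments, scaled by the TMM method of edgeR. Versions, annotation release and strand setting were not given in the sources used here. The deposited CPM values are a signal per gene in whole multiples of the value of 1 read (6.68 to 9.22 CPM): 100.0% came out whole within 0.02, which gave 102898 to 148164 reads per library. The depth behind the TPM values is unknown. The log2 copies of both tables that the authors also deposited were read for checks alone, and that of the TPM table equals log2(TPM + 1). The members and the gene lists were chosen with earlier results of these data known.

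TPM values were tested as log2(TPM + 1) with limma 3.58.1 in R 4.3.3 (variances moderated with a trend, two-sided, all 4 libraries, no covariate) on 9581 genes averaging at least 1 TPM, with Benjamini-Hochberg adjustment over all of them. An exact permutation test of 2 against 2 libraries cannot go below p = 0.333 and was not used. As an alternative, the quasi-likelihood test of edgeR 4.0.16 was run on 5146 genes with recovered reads. The limma and edgeR steps were tested on simulated data. Named genes were the 5 members, the ABC transporter genes with an unadjusted p under 0.05 or among the highest 5 by mean TPM, the tested genes within 1 Mb, and for each member the 3 protein-coding genes nearest to it by Euclidean distance. *Abca1*, *Abca3*, *Rpl9-ps6*, *Zcchc8* and the markers singled out were named after their values were seen. A further ABC transporter gene that met this rule is counted but not reported here. Gene positions and transcripts came from GENCODE M21 (GRCm38), which holds 35126 of the 35739 gene identifiers of the TPM table. Coding sequences were aligned with mafft 7.526. The alternatives were other pseudocounts, filters, scalings and tables, no moderation of variances, and leaving out each library in turn.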

Additional observations from a re-analysis of the deposited data

Results flagged for a closer look

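*Gm11697*, an annotated antisense gene on the forward strand inside *Abca8b* (chr11:109936316-109938135, GRCm38), had 46.1 and 45.9 CPM in WT replicates 2 and 3 and 86.8 and 55.3 CPM in *Usp21* KO replicates 1 and 3. It is singled out because it is outside the TPM table and its mean of 71.1 ± 22.3 CPM in KO was above that of 46.0 ± 0.133 CPM in WT (SD, n = 2 per genotype). These values stand for 6 and 5 reads in WT and 13 and 6 reads in KO, and the adjusted p of the difference was 0.821 in edgeR on the recovered reads and 0.650 in limma on the CPM table. Of its 525 exon bases, 241 (45.9%) lie in exons of *Abca8b*. Without a known strand setting, its reads and those of *Abca8b* cannot be told apart.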

How the results depend on the processing

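The log2 difference of *Abca8a* was 6.93 with a pseudocount of 0.1, 1.80 with a pseudocount of 5 and 2.08 for *Abca8a* and *Abca8b* summed, and between 3.16 and 4.28 with each library left out. On the CPM table *Abca8a* gave no value, and the 5 members summed differed by -1.30, which rests on the reads of *Abca9* alone. With an adjusted p under 0.05 as the limit, limma called 8 genes in all, and 4 without the filter, 1 on the CPM table (213 at an unadjusted p under 0.05) and 0 without moderation of variances (806 at an unadjusted p under 0.05). The count was 0 to 0 in limma with each library left out, each of which left 1 group with a lone library assumed to vary like the other group (542 to 1188 at an unadjusted p under 0.05), while edgeR called 12 of 5146 genes. No ABC transporter gene outside the cluster and no gene within 1 Mb was called in limma or edgeR under the alternatives run. This could not have come out otherwise in the settings where limma called 0 genes in all. In edgeR, 5 of the 48 listed ABC genes could be tested, on reads from the CPM table, so that it is not a second test of the TPM values. The difference of *Abca8a* was positive in every setting that gave it a value. This sign was fixed in advance, since the cluster was chosen by the zeros of *Abca8a* in WT and both KO values were above 0. It therefore says nothing about stability. The difference of the 5 members summed changed sign, from 0.70 in TPM to -1.30 on the CPM table. The signs of the genes called were not followed through the alternatives. No paired analysis was possible because the groups share only replicate number 3. With 2 libraries per genotype and TPM values without read counts, the depth behind the zeros of *Abca8a* is unknown.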
